A study of Mus musculus with 2 samples.

Results

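NF-kB is a family of paired transcription factors, and the 10 genes described here encode its 5 subunits, 3 genes that feed back on it and a pair of genes that link it to cell surface receptors. They are Nfkb1, Rel and Rela of the canonical arm, Nfkb2 and Relb of the alternative arm, the feedback genes Nfkbia, Nfkbiz and Tnfaip3, and Traf1 and Birc3. They were chosen by name, not by value, and are 10 of the 20451 genes in the deposited tables. In resting cells the inhibitor IkB-alpha, made from Nfkbia, holds canonical dimers of RelA or c-Rel with p50 in the cytoplasm, and inflammatory receptors release them within minutes by having the inhibitor degraded. The alternative arm runs through slow processing of the Nfkb2 precursor to p52, which pairs with RelB after signals from receptors such as CD40, RANK and the lymphotoxin beta receptor. RelB is best known in the thymus for its part in the development of medullary epithelium and of dendritic cells, the antigen-presenting cells that help to delete self-reactive T cells.

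Thymus was taken from wild-type mice (labelled B6WT, written WT here) and from Mgl2DTR_eGFP mice (Mgl2DTR), both 7 weeks old. In Mgl2DTR mice the receptor for diphtheria toxin is tied to Mgl2, a lectin gene of type 2 dendritic cells and some macrophages, so that toxin kills cells that carry it. Mgl2DTR mice had 500 ng of toxin with 48 h of exposure, and the labels leave unclear whether WT mice had any. After a collagenase digest, magnetic depletion took out cells with CD90.2, a marker of T cells, and the rest was sorted alive on CD11c and CD11b staining, so the numbers of cells per type were set in part by the sort. Both genotypes ran as 1 pool of droplets on the 10x Chromium 3′ v3 kit and were told apart by hashtags. There was 1 library of cells per genotype and no animal is named, so no difference could be tested: every interval below is a 95% interval for counting error only, and every ratio compares these libraries, not replicated conditions.

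By hashtag, 11586 cells were WT, with a median of 7820 UMIs (counted RNA molecules) per cell, and 7433 were Mgl2DTR, with a median of 6930. No cell barcode was in both gene tables. Levels are CPM, the UMIs of a gene over all UMIs summed in the same cells, scaled to a total of 1000000. Mgl2 itself stood at 109.2 CPM over all WT cells and 17.9 over all Mgl2DTR cells. Of 37 clusters, 27 were named after marker genes, with "-like" because markers alone name them. The named cells with at least 50 cells per genotype formed 10 classes. Dendritic cells of type 1 and type 2 are written cDC1 and cDC2, and plasmacytoid dendritic cells pDC. The activated DC-like class (1538 WT and 864 Mgl2DTR cells) holds dendritic cells rich in Ccr7, Fscn1 and Ccl22, a state also called mature or migratory. Cells with a pair of hashtags, 34.0% of all 28926, were left out. Of these, 4755 paired both genotypes. The others paired a genotype with a hashtag named uncategorized (2312 with WT and 2762 with Mgl2DTR). The labels do not say what it marks, so those need not be droplets of more than 1 cell. Pairs of cells of 1 genotype cannot be seen by hashtag and stayed in, and results were recomputed without cells whose neighbours in expression were often cells with a pair of hashtags. A 3′ kit counts 1 tag per molecule, so levels of different genes are set side by side with no scaling by length. Differences between genes in how well their RNA is counted were not measured, and shares between genes carry that limit.

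The promoters of 7 of the 10 genes were in the RefSeq table for GRCm38.p6, and are shown because NF-kB genes are known to be targets of NF-kB. Relb, Nfkb1 and Nfkbiz had no entry. The kappaB consensus, the sequence that NF-kB dimers bind, was searched on both strands, overlaps allowed, in the 250 bases before and 50 after each start. It was found in 6 of 10 promoters of the members, belonging to 4 genes: Nfkb2, Nfkbia, Rel and Tnfaip3. Among all 32851 promoters listed, 8.46% held it. A match is a description of letters and shows neither binding nor activity. The promoter of each of 3 members whose levels are followed below is printed 5′ to 3′ in the direction of the gene, with kappaB matches in capitals.
Nfkbia, chr12:55492598-55492897, minus strand: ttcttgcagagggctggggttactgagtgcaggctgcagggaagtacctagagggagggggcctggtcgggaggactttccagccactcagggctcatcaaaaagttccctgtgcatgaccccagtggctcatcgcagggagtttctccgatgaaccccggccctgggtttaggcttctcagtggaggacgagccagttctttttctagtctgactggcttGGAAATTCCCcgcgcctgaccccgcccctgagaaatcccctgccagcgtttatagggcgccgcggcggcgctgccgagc
Tnfaip3, chr10:19015361-19015660, minus strand: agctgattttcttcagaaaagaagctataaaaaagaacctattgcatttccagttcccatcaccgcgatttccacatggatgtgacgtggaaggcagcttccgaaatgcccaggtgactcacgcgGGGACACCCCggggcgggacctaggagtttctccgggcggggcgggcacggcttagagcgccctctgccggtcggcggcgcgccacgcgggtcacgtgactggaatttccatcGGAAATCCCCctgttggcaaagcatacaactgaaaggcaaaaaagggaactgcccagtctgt
Nfkb2, chr19:46304487-46304786, plus strand: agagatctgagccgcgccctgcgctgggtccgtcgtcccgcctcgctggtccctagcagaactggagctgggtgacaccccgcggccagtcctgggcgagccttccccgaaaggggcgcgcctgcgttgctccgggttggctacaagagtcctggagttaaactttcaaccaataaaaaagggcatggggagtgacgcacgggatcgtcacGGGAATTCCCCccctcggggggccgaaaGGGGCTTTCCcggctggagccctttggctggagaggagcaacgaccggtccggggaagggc
In Nfkbia the single match begins 29 bases before the start. The Tnfaip3 promoter shown has matches that begin 125 and 12 bases before its start, and the other listed promoter of Tnfaip3 has none. The Nfkb2 promoter shown has 3 matches, of which a pair overlaps, beginning 39 and 38 bases before the start. The last begins 11 bases before it. Among all promoters listed, 0.186% hold 3 or more matches. No match was found in the promoters of Rela, Traf1 or Birc3. Relb, the member that differed most between cell classes, lies at chr7:19606217-19629438 on the minus strand of GRCm38.

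Of the canonical subunits, Nfkb1 and Rela varied least of the 10 genes between cell classes and Rel was highest in activated DC-like cells. Nfkb1 encodes p105, the precursor of p50. Its WT level ran from 68.1 CPM in neutrophil-like to 162.6 CPM in cDC2-like cells, with NK or innate lymphoid-like (156.1) and monocyte-like cells (138.0) next. The intervals of cDC2-like and NK or innate lymphoid-like cells overlapped, as did those of the latter and monocyte-like cells, while monocyte-like cells did not overlap pDC-like cells (114.6). Activated DC-like cells were seventh of 10 for Nfkb1, at 95.0 CPM (89.8 to 100.3). Rela, the main transactivating subunit, ran only from 28.7 CPM in B cell-like to 59.2 CPM in activated DC-like cells. Rel encodes c-Rel, known in dendritic cells for its part in Il12b transcription. It stood at 283.3 CPM (274.4 to 292.4) in activated DC-like cells, above monocyte-like (168.8) and cDC2-like cells (156.9), and at 69.2 to 102.4 CPM in the other 7 classes. Because classes were made from the same cells, differences between them are descriptions. The members were kept out of the genes used for clustering.

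The alternative subunits set activated DC-like cells apart from every other class. Relb was at 462.1 CPM (450.7 to 473.7) there in WT, and between 24.2 CPM (cDC1-like) and 63.6 CPM (macrophage-like) in the other 9 classes. The highest class was thus 19.1 times the lowest for Relb, against 2.06 times for Rela and 2.39 times for Nfkb1. Nfkb2, which encodes p100, the precursor of p52, was at 151.3 CPM (144.8 to 158.0) in activated DC-like cells and at 30.2 to 69.0 CPM elsewhere. The 3 activated DC-like clusters did not carry equal amounts: Relb was at 596.2 CPM in cluster 4, led by Ccl5 and Il12b, at 544.5 CPM in cluster 8, led by Fabp5 and Ccl17, and at 289.7 CPM in cluster 5, in which 51% of cells carried a pair of hashtags before those were left out. After thinning each cell to 2000 UMIs, at least 1 Relb UMI was found in 59.6% of WT activated DC-like cells and in 4.4% of cDC1-like cells, the lowest class. Unthinned, these shares were 84.9% and 25%, at median depths of 7233 and 14273 UMIs. No class is known to lack Relb, so the background of free RNA could not be measured. The lowest class is set beside it only as a guide. Its cells are deeper, so its thinned share may lie below the background of shallower classes. In these classes, 215 and 169 cells were too shallow to thin.

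**Figure D1:**
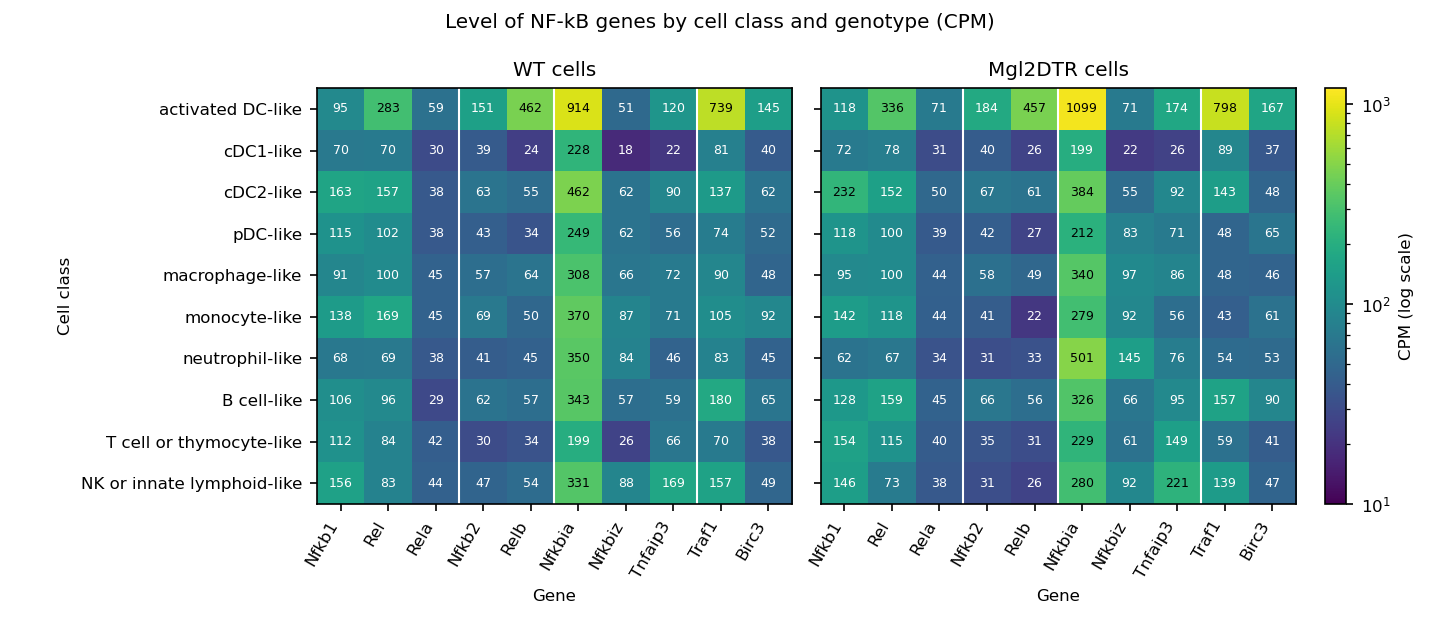
CPM of the 10 genes (columns, split by white lines into canonical subunits, alternative subunits, feedback genes and the Traf1 and Birc3 pair) in 10 cell classes (rows), for WT (left) and Mgl2DTR cells (right), with a log colour scale and the value in each cell of the grid. The activated DC-like row is brightest for Relb, Nfkbia and Traf1 in both genotypes, at 462.1, 913.8 and 739.0 CPM in WT.

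Counted as a share of the UMIs of all 5 subunits, the alternative arm (Nfkb2 and Relb) was the larger arm in activated DC-like cells and the smaller one in every other class. It held 58.4% (57.6 to 59.2) of subunit UMIs in WT activated DC-like cells and 21.2% (T cell or thymocyte-like) to 34.2% (B cell-like) in the other 9. Relb alone made 44.0% of subunit UMIs in activated DC-like cells and 10.4% in cDC1-like cells. The canonical sum (Nfkb1, Rel and Rela) moved less between these classes, at 437.5 CPM against 169.4 CPM, than the alternative sum, at 613.4 CPM against 63.5 CPM. In cDC2-like cells the canonical sum was 357.3 CPM and the alternative sum 118.3 CPM.

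**Figure D2:**
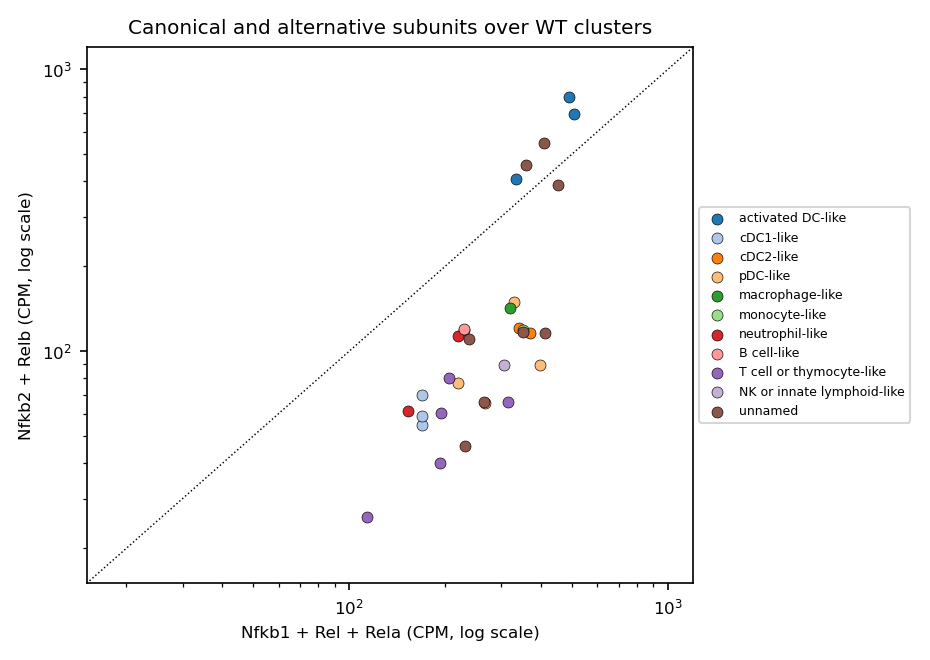
Summed CPM of the canonical subunits (x, log scale) and of the alternative subunits (y, log scale) in the 32 clusters with at least 50 WT cells, coloured by class, with a dotted line where both are equal. The 3 activated DC-like clusters lie above the line, at 408.5 to 796.6 CPM for the alternative sum, as do unnamed clusters 12 and 17, whose leading genes include Fscn1 and Ccl22.

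Traf1 and Birc3, which bring E3 ubiquitin ligase activity to TNF receptor family members, were likewise highest in activated DC-like cells. Traf1, an adaptor induced by NF-kB, was at 739.0 CPM (724.5 to 753.7) in WT activated DC-like cells and at 70 to 180.4 CPM elsewhere, with B cell-like cells second. Birc3, which encodes cIAP2, was at 145.2 CPM there and at 37.6 to 91.7 CPM elsewhere. Over the 32 WT clusters the Pearson r of log2(CPM + 10) was 0.94 between Relb and Traf1, 0.94 between Nfkb2 and Birc3, 0.94 between Nfkb2 and Nfkbia and 0.88 between Nfkb2 and Relb. For Nfkb1 it was 0.14 with Relb and 0.24 with Nfkb2. Among 6194 genes, those nearest to Relb were Nudt17 and Etv3 (both 0.95), Traf1 and Vsig10 (both 0.94), and Nudt17 is 1 of the 13 markers that named the class. Nearest to Nfkb2 were Nfkbia, Birc3, Nuak2 and Rnf19b (0.93 to 0.94), and to Nfkbia Nfkb2, Birc3, Cd80 and Mthfs (0.87 to 0.94). Rel had Nfkb2, Relb, Etv3 and Birc3 nearest (0.86 to 0.87). Rela had Otud5, Fam13b, Tmem127 and Aftph (0.79 to 0.85), none of them a member. These correlations describe clusters that share a library and its free RNA.

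The feedback genes did not share 1 order. Nfkbia was highest in activated DC-like cells, at 913.8 CPM (897.7 to 930.1), against 198.8 to 462.4 CPM in the other classes of WT. Tnfaip3 encodes A20, an enzyme that edits ubiquitin chains and ends canonical signalling. It was highest in NK or innate lymphoid-like cells (169.2 CPM, 145.4 to 195.7), then in activated DC-like (120.3) and cDC2-like cells (90.4), and lowest in cDC1-like cells (21.8). Nfkbiz encodes IkB-zeta, a nuclear IkB protein that acts with p50 on secondary targets such as Il6. In activated DC-like cells it was at 51.1 CPM, eighth of 10 classes, below NK or innate lymphoid-like (87.9), monocyte-like (86.8) and neutrophil-like cells (83.8), whose counting intervals overlapped. Among clusters, Nfkbiz was highest in neutrophil-like cluster 10, at 284.4 CPM. cDC1-like cells, whose Relb level was the lowest, were also lowest for Nfkbiz (17.8 CPM) and Tnfaip3.

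Between genotypes, activated DC-like cells kept their NF-kB levels within 1.5-fold for all 10 members. A gene was called higher or lower where Mgl2DTR over WT was 1.5-fold or more either way and the counting interval lay wholly on that side of 1, among genes with at least 50 summed UMIs. Where a call is said to stay in a number of alternatives, those keep this fold and count minimum. They include keeping only cells in the table of their genotype, which left out 0 cells and could change no call. For classes they also include weighting clusters to their WT shares. That could change nothing in monocyte-like and B cell-like cells, each class being 1 cluster. The share of all genes called is given for the reported setting only. By the 1.5-fold rule 6.56% of 9782 genes were called in activated DC-like cells and 0 of 10 members. Relb was at 462.1 and 456.7 CPM (here and below WT first, then Mgl2DTR), a ratio of 0.988 (0.945 to 1.03). Traf1 was at 739.0 and 797.5 CPM (ratio 1.08), and Nfkb2 at 151.3 and 184.0 CPM (ratio 1.22). The largest ratios belonged to feedback genes: Tnfaip3 was at 120.3 and 173.9 CPM (ratio 1.45, 1.34 to 1.56) and Nfkbiz at 51.1 and 71.0 CPM (ratio 1.39, 1.23 to 1.57). Nfkbia was at 913.8 and 1099.4 CPM (ratio 1.20). All members but Relb had a ratio above 1, with a median log2 ratio of 0.27 over the 10, beside 0.03 over all measured genes. Tnfaip3 reached a ratio of 1.5 and was called with equal weight for each cell, and also when the members could be used for clustering. Thinned to 2000 UMIs, cells with a Relb UMI were 59.6% in WT and 59.2% in Mgl2DTR.

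The alternative share of subunit UMIs in activated DC-like cells was 58.4% in WT and 55.0% (53.8 to 56.1) in Mgl2DTR. The canonical sum was at 437.5 and 524.7 CPM (ratio 1.20) and the alternative sum at 613.4 and 640.7 CPM (ratio 1.04). The alternative share was lower in Mgl2DTR in each of the other 9 classes as well. The step was small in cDC1-like cells (27.3% and 27%) and the largest among classes in monocyte-like cells (25.3% and 17.1%). Among these 9, the intervals of the share lay apart only in B cell-like and monocyte-like cells. The alternative sum itself was not lower in B cell-like (ratio 1.03), T cell or thymocyte-like (1.03), cDC1-like (1.05) or cDC2-like cells (1.09). Taken over all cells with a single hashtag, named or not, the share was 39.3% in WT and 32.7% in Mgl2DTR, and the ratio of the alternative sum was 0.750, while activated DC-like cells gave 1.04. The activated DC-like class held 1538 of 11586 WT cells and 864 of 7433 Mgl2DTR cells. It gave 8243 of 20428 and 3890 of 9387 alternative UMIs. Unnamed cluster 12, with Relb at 408.3 CPM in WT, held 441 and 62 cells and gave 2855 and 349 of these UMIs. Its own ratio of the alternative sum was 1.1. The part of the mix of cells in the pooled ratio was not tested. The alternative share could be higher in Mgl2DTR in single clusters, at 17.4% and 20.2% in T cell or thymocyte-like cluster 1.

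**Figure D3:**
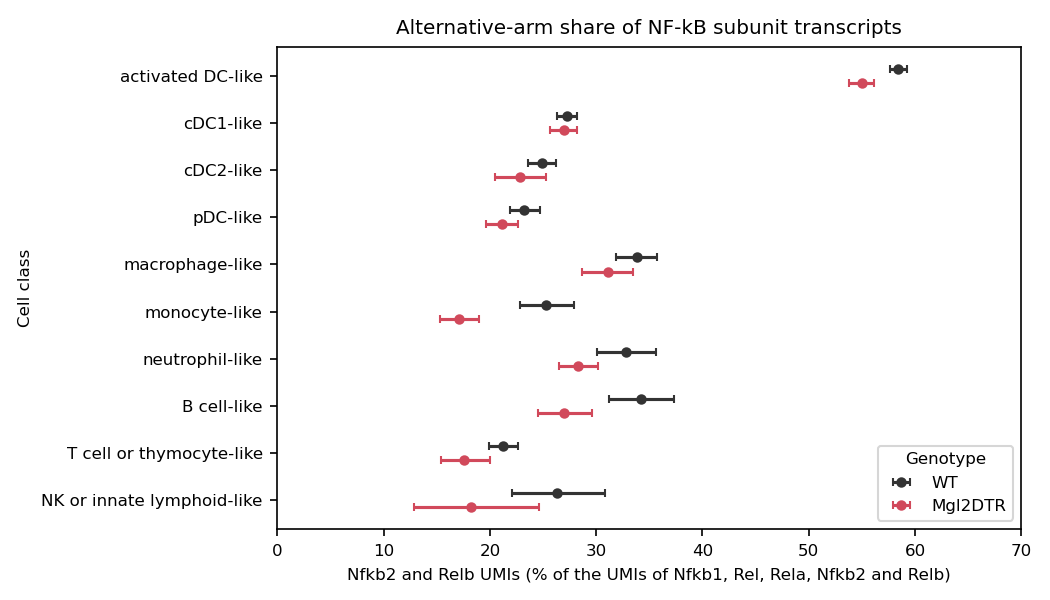
UMIs of Nfkb2 and Relb as a percent of the UMIs of all 5 subunits in each cell class, for WT (dark) and Mgl2DTR (red), with exact binomial 95% intervals. Activated DC-like cells stand at 58.4% and 55.0%, and the other classes at 17.1% to 34.2%.

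Within the activated DC-like class, the feedback genes passed the size rule in single clusters. In cluster 4, Tnfaip3 was at 156.1 and 237.2 CPM (ratio 1.52, 1.35 to 1.71), the only member called there, where 6.59% of 6828 genes were. It was not called without cells whose neighbours were often pairs (1.48), without cells holding 3 or more UMIs of another lineage's markers (1.19), nor under median scaling. In cluster 8, Nfkbiz was at 52.4 and 94.4 CPM (ratio 1.80, 1.44 to 2.24), again the only member, against 7.36% of 7120 genes, and it stayed called in all 7 alternatives with a value, but not at a fold of 2. None was called in cluster 5 (2 when thinned), where 8.43% of genes were, and there Nfkbiz was at 42.2 and 39.3 CPM. In cluster 4, 7 of 16 measured genes of a list for handling stress and immediate early response were higher as well, beside 2 of 16 in cluster 8, and their part in these ratios was not tested. Relb was at 596.2 and 546.2 CPM in cluster 4 and at 544.5 and 588.2 CPM in cluster 8, on either side of a ratio of 1.

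Other genes of the pathway were mostly level in activated DC-like cells, while several targets were not. None of 11 inhibitors and negative regulators, 15 kinases or 15 adaptors and ubiquitin ligases was called. Of 8 measured receptors Tnfrsf4, the OX40 receptor of the TNF receptor family, was higher (183.9 and 334.7 CPM, ratio 1.82). Of 6 ligands, Tnfsf4, its ligand, (2.75 and 7.74 CPM, ratio 2.81) and Tnf (27.6 and 57.2 CPM, ratio 2.07) were higher. Of 21 target genes 8 were higher and none lower, led by the neutrophil-attracting chemokines Cxcl2 (22.8 and 211.3 CPM, ratio 9.28) and Cxcl1 (8.63 and 69.5 CPM, ratio 8.05) and by Ccl3 (ratio 2.06). The median log2 ratio of the targets was 0.48, beside 0.03 over all measured genes. Cxcl2 also led neutrophil-like cluster 10, whose cells were 181 in WT and 683 in Mgl2DTR. The summed neutrophil markers in activated DC-like cells were 422.0 and 557.3 CPM, with 4 of 10 measured markers higher, and their part in these values was not tested.

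All 3 feedback genes were called higher in neutrophil-like cluster 10, led by Cxcl2, G0s2 and Retnlg. There 5 of 10 members were higher in Mgl2DTR and none lower, where 18.8% of 3288 genes were called either way. Nfkbia was at 735.2 CPM (656.6 to 820.6) and 2070.5 CPM (1994.8 to 2148.3), a ratio of 2.82. Tnfaip3 was at 113.3 and 332.7 CPM (ratio 2.94, 2.18 to 4.03). Nfkbiz was at 284.4 and 659.6 CPM (ratio 2.32). The 3 feedback genes were thus all more than 2 times as high, and each stayed called in all 7 alternatives that gave a value. Birc3 (85.5 and 170.0 CPM, ratio 1.99) and Rel (60.1 and 100.4 CPM, ratio 1.67) were also higher, on 37 and 26 WT UMIs.

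The remaining subunits in cluster 10 did not pass. Nfkb1 (101.7 and 85.8 CPM), Rela (57.8 and 71.8), Nfkb2 (83.2 and 61.6), Relb (30.1 and 41.0) and Traf1 (76.3 and 66.7) had intervals that included a ratio of 1. With Nfkbia set against the UMIs of the 5 subunits, there were 2.21 Nfkbia UMIs per subunit UMI in WT and 5.74 in Mgl2DTR, against 0.870 and 0.943 in activated DC-like cells. Of the targets 10 of 17 measured were higher, led by Cxcl2 (2827.5 and 18300.2 CPM, ratio 6.47), Nlrp3 (ratio 2.72) and Ier3 (ratio 2.05). The ligands Tnf (11.6 and 63.8 CPM, on 5 and 87 UMIs) and Il1b (7009.7 and 13545.0 CPM) and the receptor Tlr4 (39.3 and 95.3 CPM) were higher, and Birc2, which encodes cIAP1, was lower (53.2 and 24.2 CPM). Of the stress and immediate early list 10 of 16 measured genes were higher, and the summed neutrophil markers were at 257016.1 and 163939.0 CPM. The part of either in these ratios was not tested.

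Neutrophil-like cluster 14, led by the granule genes Camp, Ngp and Elane, had no member higher. There Traf1 (54.7 and 15.5 CPM, ratio 0.283), Relb (31.5 and 14 CPM, ratio 0.445) and Nfkb2 (29.7 and 14.8 CPM, ratio 0.499) were lower in Mgl2DTR, where 16.2% of 8328 genes were called. All 3 lost the call when cells holding UMIs of another lineage's markers were left out, and the ratios of Traf1 and Relb then were 1.29 and 1.26. The summed activated DC markers were at 1303.4 and 667.0 CPM, 11 of 13 lower and none at 0. The whole neutrophil-like class had Nfkbiz and Tnfaip3 called higher (ratios 1.74 and 1.67) and Traf1 lower (0.648; 1.07 and not called without cells holding other lineages' markers), where 11.6% of 9159 genes were called. Most WT cells of the class were in cluster 14 (232 of 460) and most Mgl2DTR cells in cluster 10 (683 of 1080). With the clusters weighted to their WT shares, an alternative chosen after seeing the data, the class ratios were 1.09 for Nfkbiz and 1.02 for Tnfaip3. No member was then called higher and 3 were lower. The calls on Nfkbiz and Tnfaip3 were thus lost, not reversed, and the part of the mix of clusters was not tested.

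**Figure D4:**
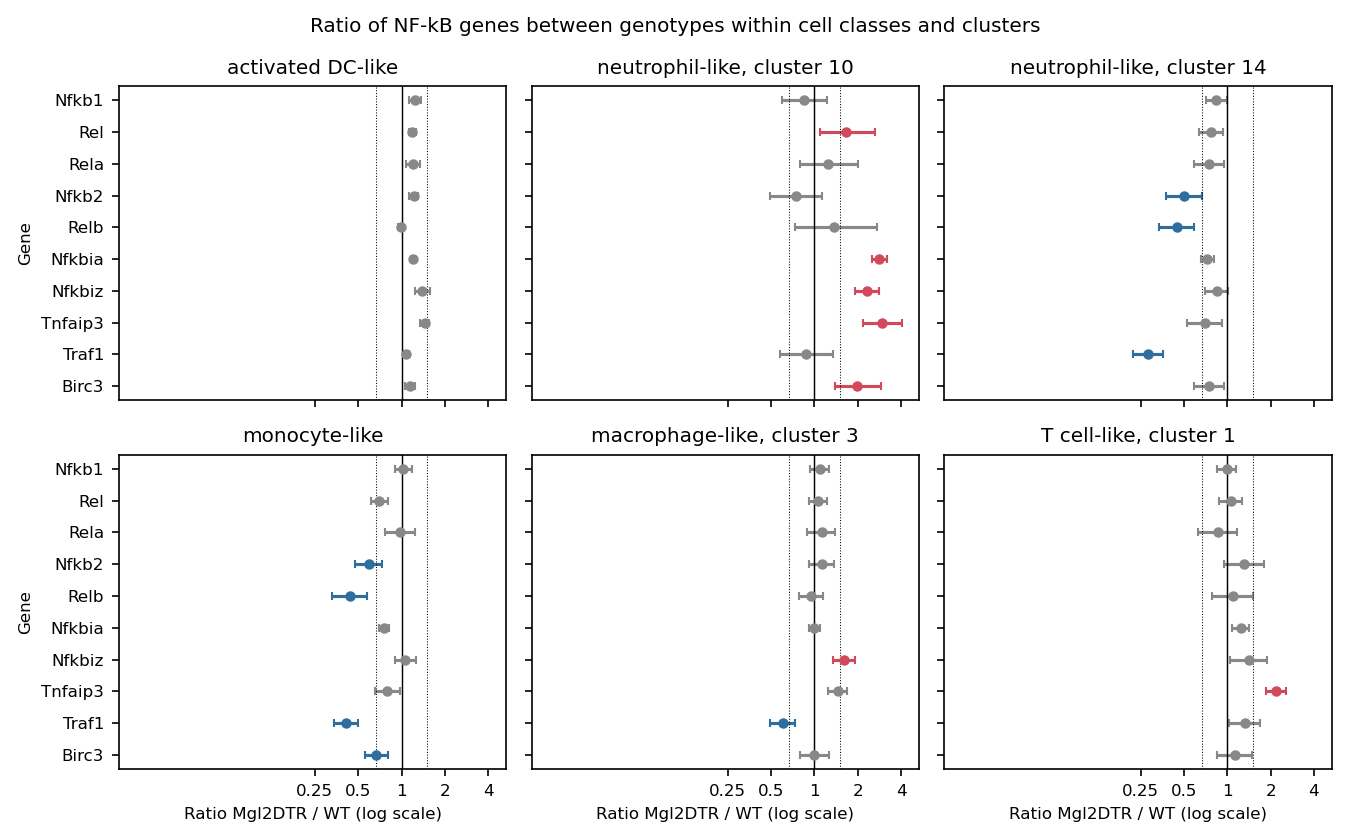
Ratio of Mgl2DTR over WT for the 10 genes in 6 classes or clusters (x, log scale), with exact 95% counting intervals, dotted lines at 1.5-fold either way, and genes called higher in red and lower in blue. In neutrophil-like cluster 10 Nfkbia, Nfkbiz and Tnfaip3 lie at 2.82, 2.32 and 2.94, while monocyte-like cells have Relb at 0.438 and Traf1 at 0.409.

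In monocyte-like cells the alternative subunits and both receptor-linked genes were lower in Mgl2DTR. Relb was at 49.9 CPM (41.5 to 59.6) and 21.8 CPM (17.7 to 26.7), a ratio of 0.438. Traf1 was at 105.1 and 43.0 CPM (ratio 0.409), Nfkb2 at 69.0 and 40.9 CPM (ratio 0.593), and Birc3 at 91.7 and 61.1 CPM (ratio 0.666). These 4 of 10 members were lower and none higher, where 14.1% of 7747 genes were called. Nfkb1 (138.0 and 142.2 CPM) and Rela (45.0 and 43.7 CPM) had ratios of 1.03 and 0.970, and Rel was at 168.8 and 118.5 CPM (ratio 0.702). Relb and Traf1 stayed called in all 10 alternatives, Nfkb2 in 8 and Birc3 in 7, and thinned to 2000 UMIs the latter pair stood at 0.877 and 0.862. Without cells holding other lineages' markers the ratios of Relb and Traf1 were 0.441 and 0.289. In that setting 7 members were lower, Nfkbia (0.626) and Tnfaip3 (0.647) among them. Beside them, the activated DC markers summed to 908.7 CPM in WT and 431.8 CPM in Mgl2DTR (8 of 10 measured lower, none at 0), and the neutrophil markers to 878.2 and 14503.2 CPM (11 of 13 measured higher, 1 of 14 at 0 in WT). In activated DC-like cells the 13 activated DC markers summed to 14782.0 CPM in WT and 16243.2 CPM in Mgl2DTR. Ccl22, Fscn1 and Ccr7, which are only part of that list, were together at 2.19% of their WT activated DC-like level in WT monocyte-like cells. Relb was at 10.8% and Nfkb2 at 45.6% of theirs. The part of these other markers was not tested.

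Macrophage-like cells, rich in complement C1q genes, had Traf1 lower and no subunit called. Traf1 was at 90.4 and 48.0 CPM (ratio 0.531, 0.450 to 0.623), the only member called, where 17.5% of 9398 genes were. It stayed called in 8 of 10 alternatives, and over all 10 the ratio ran from 0.509 to 0.853. Without cells whose neighbours were often pairs, the only call was Nfkbiz, higher at 1.66. The clusters of the class were not equally filled, with 544 WT and 271 Mgl2DTR cells in cluster 3 against 54 and 207 in cluster 21. Relb was at 63.6 and 49.2 CPM (ratio 0.774) and Nfkbiz at 65.5 and 97.1 CPM (ratio 1.48). In cluster 3, its main WT cluster, Nfkbiz passed (55.1 and 87.9 CPM, ratio 1.60) and Traf1 was lower (84.3 and 50.9 CPM, ratio 0.604), where 8.10% of 8912 genes were called. Without cells whose neighbours were often pairs, cluster 3 gave 0.825 for Traf1 and 1.48 for Nfkbiz, neither called. In cluster 21, led by Pf4 and Ccl7, 5 members were lower (Rela, Relb, Nfkbiz, Traf1 and Birc3, ratios 0.257 to 0.607), where 33.9% of 5211 genes were called. All 54 of its WT cells had neighbours that were often pairs, so that comparison has no value without them. Without cells holding other lineages' markers none of the 5 was called, and 1 member was higher. Thinned, 1 member was lower. The class's own macrophage markers summed to 16174.9 and 9346.4 CPM (7 of 14 lower and 2 higher). The activated DC markers summed to 2884.1 and 1531.3 CPM (11 of 13 lower, none at 0) and the neutrophil markers to 2487.8 and 4978.2 CPM (11 of 13 measured higher, none at 0). Their part was not tested.

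The cDC1-like and cDC2-like classes had no member called. In cDC1-like cells 2.62% of 10880 genes were called, and the ratios of the members ran from 0.874 for Nfkbia (227.9 and 199.2 CPM) to 1.27 for Nfkbiz (17.8 and 22.5 CPM). In cDC2-like cells, which include those that carry Mgl2, 6.29% of 8925 genes were called. There were 877 WT and 218 Mgl2DTR cells. Nfkb1 was at 162.6 CPM (154.3 to 171.2) and 231.7 CPM (211.8 to 253.0), a ratio of 1.43, and Nfkbia at 462.4 and 383.9 CPM (ratio 0.830). Inside the class, Nfkb1 passed in cluster 15, led by Mmp12 (156.9 and 247.4 CPM, ratio 1.58, 1.37 to 1.81), where 6.85% of 7429 genes were called, and stayed called in 4 of 7 alternatives. It did not in cluster 18, led by Cd209d (169.0 and 212.2 CPM, ratio 1.26), where 7.53% of genes and none of the members were. Of 12 measured kinases of the pathway list, 1 was called in cDC2-like cells: Map3k14 was higher (25.1 and 38.2 CPM, ratio 1.52). It encodes NIK, the kinase that starts processing of the Nfkb2 product. Nfkb2 itself was at 63.0 and 67.0 CPM. No kinase was called in cluster 15, and 1 of 11 was higher in cluster 18. In the other lists of the class, 1 of 15 adaptors and ubiquitin ligases and 1 of 4 ligands were higher, and 1 of 9 receptors was lower. Of 19 targets 3 were higher and 2 lower.

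Plasmacytoid dendritic-like cells had Traf1 lower (74.1 and 48.1 CPM, ratio 0.649, 0.575 to 0.731), 1 call beside 4.16% of 10214 genes. Without cells whose neighbours were often pairs the ratio was 1.16 and not called. Without cells holding other lineages' markers 3 members were higher and none lower, and with equal cell weights 1 was higher and none lower. In their main cluster, cluster 2, Traf1 was the lowest of any WT cluster, at 29.5 CPM. Over the class, activated DC markers summed to 495.8 and 392.1 CPM (5 of 13 lower, none higher or at 0). Ccl22, Fscn1 and Ccr7 together had a ratio of 0.703, and the part of these markers was not tested.

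Lymphoid classes differed from one another. In T cell or thymocyte-like cells Tnfaip3 was at 65.5 CPM (61.1 to 70.3) and 148.7 CPM (135.0 to 163.3), a ratio of 2.27, and Nfkbiz at 26.4 and 61.0 CPM (ratio 2.31), 2 of 10 members where 8.86% of 10039 genes were called. Tnfaip3 stayed called in all 10 alternatives and Nfkbiz in 9. Over all 10 the ratio of Nfkbiz ran from 1.45 to 3.59. Thinned to 2000 UMIs, a Tnfaip3 UMI was found in 12.4% and 29.0% of cells, and unthinned in 25.2% and 47.3%, at median depths of 3208 and 3676. The lowest class, cDC1-like, gave 4.98% and 6.61% thinned, at median depths of 14273 and 13763. Being deeper, it may understate the background of free RNA in T cell or thymocyte-like cells. The subunits lay within 1.5-fold, Nfkb1 at 112.1 and 154.5 CPM and Rel at 83.8 and 115.1 CPM. Cluster 1, which held most cells of the class, had Tnfaip3 at 92.1 and 200.7 CPM (ratio 2.18) as its only call, where 5.26% of 8007 genes were called, with Nfkbiz at 33.9 and 47.7 CPM. Ccl22, Fscn1 and Ccr7 had a joint ratio of 2.02 in that cluster. The whole list of activated DC markers summed to 959.5 and 1342.4 CPM there, with 3 of 11 measured markers higher and 1 lower. The part of these markers was not tested. In the class 8 of 17 genes of the stress and immediate early list were higher, but only 1 of 16 in cluster 1.

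The highest called ratio of a member in the classes and clusters described, that of Nfkbiz, was in cluster 27, thymocyte-like cells that met all 9 cycling markers, with 142 WT and 60 Mgl2DTR cells. There Nfkbiz (14.3 and 133.0 CPM, ratio 9.33, on 21 and 83 UMIs), Nfkb1 (46.8 and 221.1 CPM), Rel (34.6 and 123.4 CPM), Nfkbia (90.3 and 243.6 CPM) and Tnfaip3 (50.9 and 118.6 CPM) were higher. These were 5 of the 7 members with enough counts, beside 24.5% of 5030 genes called. The cells behind the label were unlike: T cell markers summed to 11173.6 and 5014.0 CPM, cycling markers to 7760.8 and 3924.3 CPM, monocyte markers to 520.5 and 3611.9 CPM, and 51.7% of the Mgl2DTR cells had neighbours that were often pairs. Of the stress and immediate early list 12 of 14 measured genes were higher and 1 lower (median log2 ratio 2.07, summed level 3531.6 and 8028.1 CPM). Their part was not tested. Without cells whose neighbours were often pairs, Nfkb1 had a ratio of 5.6 and Nfkbia of 2.1, both still called, and Nfkbiz and Rel were not. Calls in the cluster numbered 2 when thinned and 6 with equal cell weights.

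In B cell-like cells 3 of 10 members were higher, where 9.08% of 7348 genes were called. Rel, which B cells need for proliferation, was at 95.5 and 158.8 CPM (ratio 1.66, 1.42 to 1.95), Rela at 28.7 and 45.0 CPM (ratio 1.57) and Tnfaip3 at 59.1 and 94.6 CPM (ratio 1.60). Of 10 alternatives Rel stayed called in 9, Tnfaip3 in 6 and Rela in 5. Nfkb2 (62.5 and 66.5 CPM) and Relb (56.9 and 56.1 CPM) had ratios of 1.07 and 0.986, so the alternative share was 34.2% in WT and 27% in Mgl2DTR. Neutrophil markers in these cells summed to 583.8 and 3639.7 CPM (10 of 11 measured higher), and their part was not tested. In NK or innate lymphoid-like cells Relb was at 54.2 and 26.1 CPM (ratio 0.482, 0.254 to 0.862) on 58 and 15 UMIs, 1 call beside 5.92% of 4158 genes, and it was not called without cells holding other lineages' markers. Without cells whose neighbours were often pairs, the single call was higher instead. Tnfaip3, highest in this class, was at 169.2 and 221.2 CPM (ratio 1.31). Activated DC markers in the class summed to 6947.5 and 4510.3 CPM (3 of 4 measured lower, none at 0). Of that sum, Ccl22, Fscn1 and Ccr7 together made only 74.8 and 50.5 CPM, or 2.01% and 1.21% of their activated DC-like level in the same genotype. The part of these markers was not tested.

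Across the 10 classes, the ratio of Tnfaip3 was above 1 in 9, the exception being monocyte-like cells (0.793), and it was called in 3 (B cell, T cell or thymocyte and neutrophil-like). No feedback gene and no canonical subunit was called lower in a class as reported. All calls on the alternative subunits, Relb in monocyte and NK or innate lymphoid-like cells and Nfkb2 in monocyte-like cells, were lower, as were all 4 calls on Traf1, in macrophage, monocyte, neutrophil and pDC-like cells, of which those in neutrophil and pDC-like cells turned direction in some alternatives. These classes come from the same pair of libraries and are not replicates of one another.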

How the data were processed

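Both deposited gene tables hold counts (UMIs, not normalized). Genotype came from the hashtag call that the authors deposited for each cell. The submitters' processing notes name Cell Ranger 6.0.0, Seurat 4.0.4 and mm10. No source used here gives the annotation behind the counting. The 10 genes, the pathway and marker lists and the tests were chosen with earlier results of these data known. Cells with a pair of hashtags (9829) or none (78) were left out, and no depth filter was applied.

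Counts were scaled to 10000 per cell and logged, 2000 variable genes were chosen without the members and Mgl2, and 30 principal components with 20 neighbours were clustered with leidenalg 0.10.2 (resolution 1) in Python 3.11.15 with numpy 2.4.6, scipy 1.17.1, pandas 2.3.3 and igraph 0.11.9. A cluster took a name from at least 3 markers at 2 times the level of other cells and in 20% of its cells. It stayed unnamed where another lineage met 60% of its own list or had more markers among the 10 leading genes, or where the cells were shallow and no marker led. UMIs were summed per class and genotype. CPM carry exact Poisson intervals, shares exact Clopper-Pearson intervals and ratios exact conditional intervals, all at 95%. With 1 library per genotype no test and no count model was run. The size rule was checked on simulated data. Figures were drawn with matplotlib 3.10.9.

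The text names the 10 members in every class. Of the pathway lists it draws on up to 3 genes called with the largest and 3 with the smallest ratio, and beside 5 members on the 4 genes with the highest r among those reaching 50 CPM. Target and stress lists share Junb and Ier3, inhibitor and stress lists share Zfp36, and Ccr7 is both a target and an activated DC marker. Alternatives left out cells by neighbourhood (50 neighbours), by 3 UMIs of another lineage's markers, or under 1000 UMIs or over 10% mitochondrial counts, weighted cells equally, thinned to 2000 UMIs, scaled to the median gene, raised the count minimum to 200 or the fold to 2, or clustered otherwise.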

Additional observations from a re-analysis of the deposited data

Results flagged for a closer look

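For 3 genes the ratio of Mgl2DTR over WT was called higher in 1 class or cluster and lower in another. The difference between such classes was not tested, since each genotype is 1 library. Nfkbiz was higher in T cell or thymocyte-like cells (2.31), in the neutrophil-like class (1.74), in neutrophil-like cluster 10 (2.32), in macrophage-like cluster 3 (1.60), in activated DC-like cluster 8 (1.80) and in cluster 27 (9.33), and lower in macrophage-like cluster 21 (0.538). Birc3 was higher in neutrophil-like cluster 10 (1.99) and lower in monocyte-like cells (0.666) and in cluster 21 (0.561). Rela was higher in B cell-like cells (1.57) and lower in cluster 21 (0.607). In cluster 21 all 54 WT cells had neighbours that were often cells with a pair of hashtags. Its 5 lower calls were all lost without cells holding other lineages' markers, and thinned 1 member was lower.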

How the results depend on the processing

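Of 39 called ratios, 33 kept their direction in every alternative with a value and 10 also kept their call, not counting the stricter fold and count minimum, at which calls were only counted per class. At a fold of 2, Nfkbiz in cluster 8 was among those lost. The ratio of Traf1 turned in neutrophil-like cells (1.07 without cells holding other markers, 1.00 when thinned), in pDC-like cells (1.16 without neighbourhood pairs), in cluster 14 (1.29 without cells holding other markers) and in cluster 3 (1.04 when thinned), and that of Relb in cluster 14 (1.26 without cells holding other markers, 1.17 when thinned) and in cluster 21 (1.09 when thinned). The cause was not tested. The share of all genes called is not given for the alternatives. In the 10 classes and clusters 4, 8 and 10, called members differed by over 1.5 times from those reported as follows. Without neighbourhood pairs they were 1 in B cell-like cells, 0 in pDC-like cells and 0 in cluster 4. Without cells holding other markers they were 0 in NK or innate lymphoid-like cells, 7 in monocyte-like cells, 3 in pDC-like cells (all higher, where the reported call is lower) and 0 in cluster 4, and the alternative share in Mgl2DTR activated DC-like cells was 56.7%. With equal cell weights they were 0 in B cell, 2 in NK or innate lymphoid, 1 in activated DC and 2 in macrophage-like cells and 2 in cluster 8. Thinned, they were 1 in B cell, 0 in NK or innate lymphoid, 1 in cDC1 and 0 in macrophage-like cells and 3 in cluster 10. At resolution 0.5 they were 1 in T cell or thymocyte, 2 in macrophage and 2 in pDC-like cells, and with the members among the variable genes 1 in activated DC, 2 in macrophage and 0 in pDC-like cells. At a fold of 2 they were 0 in B cell, macrophage, neutrophil and pDC-like cells and in clusters 4 and 8, 2 in monocyte-like cells and 3 in cluster 10. Median scaling gave 0 in cluster 4, a minimum of 200 counts gave 0 in NK or innate lymphoid-like cells, and the WT cluster mix, chosen after seeing the data, gave 0 in pDC-like cells. The balance of higher and lower calls also changed at a similar count. That mix gave 0 higher and 3 lower in neutrophil-like cells (2 and 1 as reported). Leaving out neighbourhood pairs gave 1 higher and 0 lower in NK or innate lymphoid and in macrophage-like cells (0 and 1). Resolution 0.5 gave 1 higher and 0 lower in NK or innate lymphoid-like cells. Equal cell weights gave 1 higher and 0 lower in pDC-like cells (0 and 1). Keeping only cells whose hashtag matched the table they were in left out 0 cells, so that alternative could change no call. With 1 library per genotype, no replicate could be left out. No paired analysis was possible because each genotype was 1 library. Median scaling moved all genes of a class or cluster by at most 0.11 on the log2 scale, in cluster 21.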
